A study of Homo sapiens with 6 samples.

Results

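RPS27L and RPS27 are 2 paralogous genes of the small ribosomal subunit, followed here in A549 cells, an established human lung adenocarcinoma line, after a short exposure to the DNA-crosslinking drug cisplatin. The members were taken as every probe set that the platform's gene table pairs with one of the 2 symbols, which gave 2 probe sets, 218007_s_at for RPS27L and 200741_s_at for RPS27, of 8746 on the array. They are 2 of 7713 genes that the table names there by a single symbol. The pair was chosen by results of this same comparison, in which RPS27L had been higher after cisplatin, so the cisplatin values of both members, with the errors and calls of the fit over all probe sets, are given as a description and are no independent test of the pair. Total RNA was measured on 6 single-colour oligonucleotide arrays. The 3 cisplatin arrays came from cells that spent 1 hour in medium with 50 µM cisplatin, and the 3 control arrays from cells given the same 1 hour in medium without drug. Both groups then had 10 hours in drug-free medium, and the series describes 3 independent experiments of this one cell line.

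RPS27 encodes eS27, a zinc-binding protein on the surface of the small subunit that is made constitutively together with the other ribosomal proteins. RPS27L encodes a close relative of it and is known as a target of p53, the transcription factor that is activated by DNA damage. Both proteins are known to bind MDM2, the ubiquitin ligase that degrades p53. RPS27A, in spite of its name, is a different gene that encodes a fusion of ubiquitin with another ribosomal protein, and it is not a member here.

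The control regions of both genes are shown because ribosomal protein genes are known for a characteristic transcription start, and the pair can be set side by side there. The sequences are those of RefSeq for build GRCh38.p14, which had an entry for both members, and run from 150 bases before the annotated transcription start to 10 bases after it. That is chr15:63157468-63157627 on the minus strand for RPS27L and chr1:153990612-153990771 on the plus strand for RPS27. Capitals mark matches on either strand to the letters TATAA of a TATA box, to CCGGAAG, the core of sites for ETS factors, to the letters GGGCGG of a GC box or to the p53 half-site, and the run of C and T over the start of RPS27.

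RPS27L: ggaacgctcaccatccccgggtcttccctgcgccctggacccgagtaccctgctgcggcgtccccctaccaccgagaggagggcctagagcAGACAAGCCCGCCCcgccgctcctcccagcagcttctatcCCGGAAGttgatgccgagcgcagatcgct
RPS27: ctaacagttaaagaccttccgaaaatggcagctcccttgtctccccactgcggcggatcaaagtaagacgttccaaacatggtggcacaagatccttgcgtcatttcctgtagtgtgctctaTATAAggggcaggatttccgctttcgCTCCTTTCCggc

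The RPS27 window held TATAA from base -28 to -24, counted from the start at base 1, a match that 21.1% of 27305 promoters of 300 bases contain, and 15.9% of the ribosomal protein and 7.14% of the p53 target promoters among them. Vertebrate ribosomal protein messages are known to begin with a C followed by a tract of pyrimidines. RPS27 had an unbroken run of 9 pyrimidines, CTCCTTTCC, from base -2 to 7, and 7.92% of promoters had a run as long within 5 bases of their start. The median was 11 over 63 other ribosomal protein promoters and 3 over all promoters. At the start of RPS27L the longest such run had 2 bases, a length that 89.4% of promoters reach or exceed. The RPS27L window held CCGGAAG from base -19 to -13, which 10.7% of all promoters, 33.3% of the ribosomal protein promoters and 4.76% of those of 42 p53 target genes contain. It also held GGGCGG on the opposite strand from base -51 to -46, found in 44.6% of all promoters, 55.6% of the ribosomal protein promoters and 88.1% of the p53 target promoters, and a p53 half-site, AGACAAGCCC, from base -59 to -50, which shares 2 bases with it. A p53 half-site was present in 6.54% of all promoters, 11.1% of the ribosomal protein promoters and 7.14% of the p53 target promoters. RPS27 also matched the half-site, as GAACATGCCT from base 32 to 41, downstream of the part shown. These matches are letters in a sequence and no measure of binding. The p53 element described for RPS27L lies in an intron, outside this window.

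RPS27L was brighter on every cisplatin array than on any control array. Its intensity was 3188, 2765 and 2857 on cisplatin 1 to 3, against 1822, 1905 and 2048 on control 1 to 3. The means were 2937 ± 223 after cisplatin and 1925 ± 115 in control cells (SD, n = 3 each). The lowest cisplatin value thus lay above the highest control value. The fitted log2 fold was 0.61 (SE 0.08, 95% interval 0.43 to 0.78), or 1.52-fold, on the scale of log2 intensity plus an offset of 11.8, and the ratio of the mean intensities was 1.53. The arrays measured RNA of whole cultures, so more cells with the message and more message per cell cannot be told apart.

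RPS27 had overlapping groups. Its intensity was 4065, 3652 and 3952 on cisplatin 1 to 3, against 3587, 3649 and 3801 on control 1 to 3. The means were 3890 ± 214 after cisplatin and 3679 ± 110 in control cells (SD, n = 3 each). Cisplatin 2 lay below control 3. The log2 fold was 0.08 (SE 0.06), and its 95% interval of -0.06 to 0.21 allows anything between a 0.962-fold and a 1.16-fold level.

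**Figure D1:**
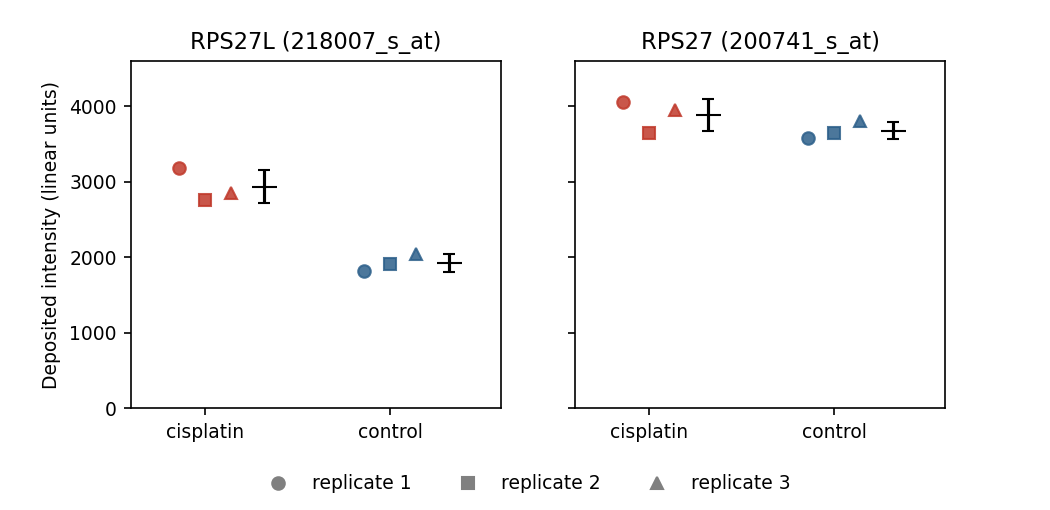
Deposited intensity (linear units) of the RPS27L and the RPS27 probe set on each array, with the mean and SD of 3 arrays beside each group. The cisplatin values of RPS27L, from 2765 to 3188, lie above its control values of 1822 to 2048, while the RPS27 values of the groups overlap between 3652 and 3801.

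Both members passed the filter on dim probe sets and entered the limma fit over 6559 probe sets, of which 14 (0.213%) were called higher and 5 (0.0762%) lower after cisplatin at a Benjamini-Hochberg adjusted p under 0.05. RPS27L was among those called higher, and RPS27 was not called. For 487 probe sets (7.42%) all 3 cisplatin values exceeded all 3 control values, as for RPS27L. Because the pair was chosen from this comparison, nothing is read from these counts. The call on RPS27L was absent without cisplatin 1 (log2 fold 0.54), without cisplatin 3 (0.62) and without control 2 (0.60), with arrays centred on the median (0.53), and, at the same log2 fold of 0.61, without the intensity trend or with the replicate block. The direction of the RPS27L difference was the same in all 18 alternatives run, and so was that of RPS27.

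**Figure D2:**
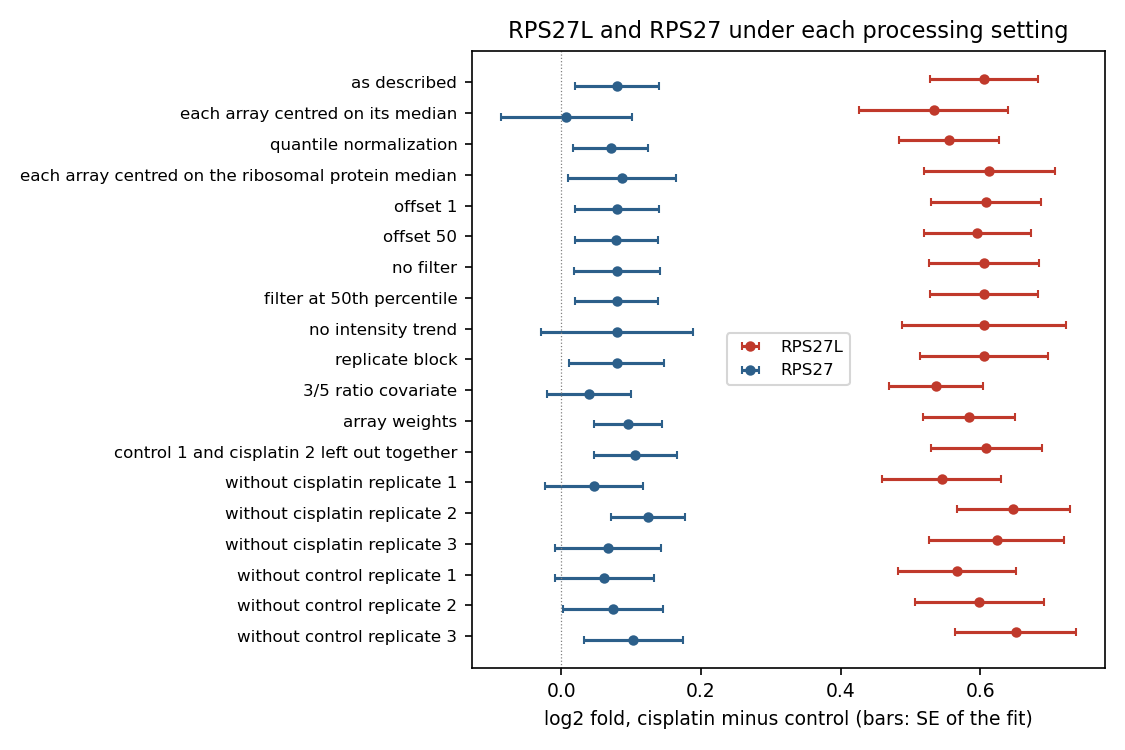
Log2 fold (cisplatin minus control) of RPS27L and RPS27 as described and under 18 other settings, with the SE of each fit as bars. RPS27L stayed between 0.53 and 0.65 and RPS27 between 0.01 and 0.12.

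Over all tested probe sets 54 had a higher log2 fold than RPS27L, or 0.823%. RPS27L was chosen for its fold in this comparison, so this rank and the next describe it and test nothing. Among the 150 other probe sets with a mean signal at or above that of RPS27L, 0 had a higher log2 fold. The log2 folds of the 150 had a median of 0.01 and a minimum of -0.19. The nearest of them, picked after its value was seen, was SFN, which encodes the cell-cycle protein 14-3-3 sigma and is itself a p53 target, with a log2 fold of 0.41 (SE 0.07). It was followed by S100A6, a calcium-binding protein gene, at 0.28 (SE 0.09). The residual SD between arrays was 0.10 on the log2 scale for RPS27L and 0.06 for RPS27, against a median of 0.08 over those 150 and 0.19 over all tested probe sets.

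Setting the members against each other within each array removes what an array does to both. The log2 difference RPS27L minus RPS27 was -0.35, -0.40 and -0.47 on cisplatin 1 to 3, against -0.97, -0.93 and -0.89 on control 1 to 3. The means were -0.41 ± 0.06 on cisplatin arrays and -0.93 ± 0.04 on control arrays (SD, n = 3 each), a shift of 0.53, or 1.44-fold. The probes of 2 genes differ in how strongly they bind, so the height of this difference does not compare the abundance of the messages, and the value that can be read is its shift between the groups. Since the pair was chosen with the RPS27L difference known, the shift largely restates that difference, and it does not show that RPS27 stayed constant.

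In each group the arrays stood in the same order for RPS27 and for RPS27L. Cisplatin 1 was highest and cisplatin 2 lowest, and control 3 was highest and control 1 lowest, for both genes. The pooled SD of the within-array difference was 0.05, against 0.10 for RPS27L and 0.06 for RPS27 alone. The ratio of 3′ to 5′ signal of ACTB, which tells how complete the labelled RNA was, stood at 3.67, 2.67 and 2.94 on cisplatin 1 to 3, against 2.20, 2.98 and 2.95 on control 1 to 3, so cisplatin 1 was highest and control 1 lowest in it as well. With this ratio as a covariate the log2 fold was 0.54 for RPS27L and 0.04 for RPS27, and their difference was 0.50.

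**Figure D3:**
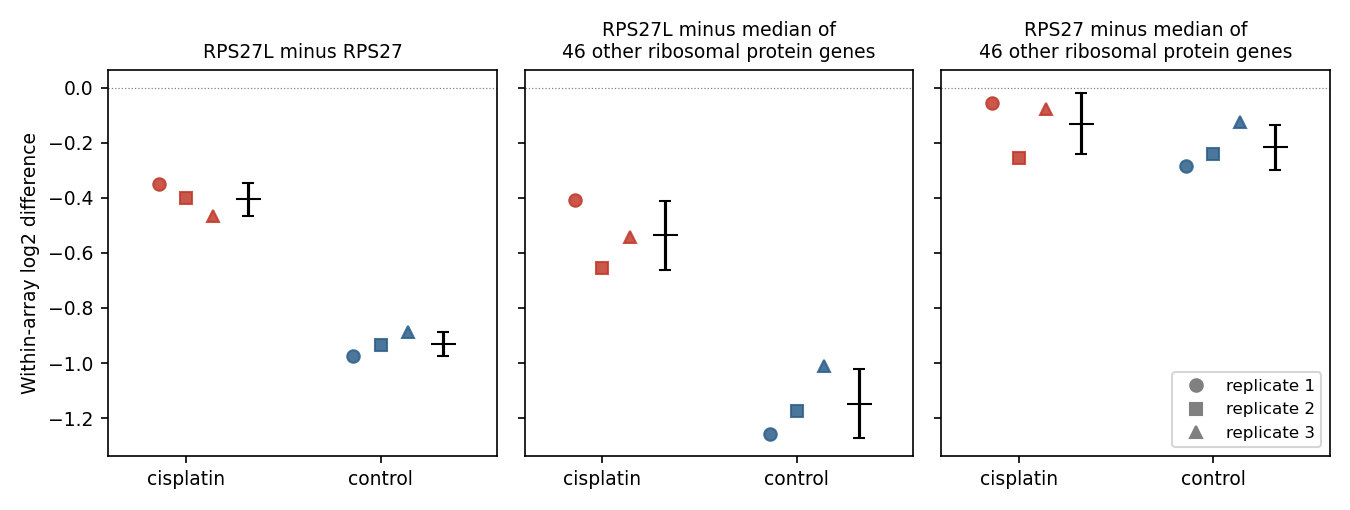
Within-array log2 differences on each array, with the mean and SD of 3 arrays beside each group. RPS27L minus RPS27 lay between -0.47 and -0.35 on cisplatin arrays and between -0.97 and -0.89 on control arrays, RPS27L shifted likewise against the median of the other ribosomal protein genes, and RPS27 overlapped.

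The list of ribosomal protein genes, drawn up from textbook knowledge with earlier results of these data in view, had 79 other members, of which 46 were measured under a single symbol, and all 46 passed the filter. By limma 0 were called and 0 reached an unadjusted p under 0.05. Over all 5816 tested genes 0.292% were called and 303 genes reached that p. The log2 folds of the 46 ran from -0.13 for RPL18 to 0.16 for RPL11, with a median of 0.02. The median over all 5816 tested genes was 0.04. RPS27L, at 0.61, exceeded each of the 46. RPS27, at 0.08, was exceeded by 9 of them, FAU (0.14) and RPL11 having the highest values. RPL14 had the second lowest, at -0.10.

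Taken relative to the median of those 46 genes on the same array, RPS27L was at -0.41, -0.66 and -0.54 on cisplatin 1 to 3, against -1.26, -1.18 and -1.01 on control 1 to 3. That is a shift of 0.61 in the log2 difference (pooled SD 0.13), with no overlap between the groups. RPS27 on this measure was at -0.06, -0.26 and -0.08 on cisplatin 1 to 3, against -0.28, -0.24 and -0.12 on control 1 to 3, a shift of 0.09 (pooled SD 0.10) with overlapping groups. The median of the 46 genes itself differed by -0.01 between the groups.

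Some other ribosomal proteins also have a paralogous copy. Of 14 such genes and copies 6 were measured, and by limma 0 were called and 0 reached an unadjusted p under 0.05. Over all tested genes 0.292% were called and 303 of 5816 reached that p, so 0 of 6 says little. RPL26L1, the copy of RPL26, had 879 ± 53.5 in cisplatin cells and 825 ± 23.2 in control cells (SD, n = 3 each), a log2 fold of 0.09 (SE 0.09). RPL36AL, the copy of RPL36A, had a log2 fold of 0.05 (SE 0.11). RPL3L, the muscle copy of RPL3, was dim, at 68.4 ± 25.3 in cisplatin cells and 54.1 ± 6.06 in control cells, with a log2 fold of 0.24 (SE 0.22). RPL22, RPL39 and RPL7, which have copies of their own, had log2 folds of 0.10, 0.08 and 0.00.

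Several ribosomal proteins are known to bind MDM2, as both members do, and 7 of 13 listed ones were measured. By limma 0 were called and 0 reached an unadjusted p under 0.05. With 0.292% of all 5816 tested genes called and 303 at that p, 0 of 7 says little. RPL11, which restrains MDM2 when ribosome assembly is disturbed, had 1985 ± 168 in cisplatin cells and 1785 ± 234 in control cells (SD, n = 3 each), a log2 fold of 0.16 (SE 0.11). RPS25 had a log2 fold of 0.07, RPS7 0.01, RPL37 0.00, RPS15 -0.04, RPS14 -0.08 and RPS3 -0.09. Factors that assemble the small subunit, with 11 of 31 measured and tested, likewise gave 0 calls and 0 unadjusted p under 0.05. At the same shares over all tested genes, 0 of 11 says little either. The factors with the lowest p were PNO1, which helps the immature subunit form (log2 fold -0.15, SE 0.10), and PWP2, a component of the early processome (-0.22, SE 0.15).

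Of 53 listed p53 targets other than RPS27L, 35 were measured under a single symbol and 30 were bright enough to be tested. In limma 11 of the 30 rose, 0 fell and 19 did not pass, where 0.213% of all tested probe sets were called higher. Their median log2 fold was 0.57, beside 0.04 over all tested genes, with 28 higher and 2 lower. Over all 5816 tested genes 3522 were higher and 2294 lower. The list was drawn up with earlier results of these arrays known, so its direction is not independent evidence. The 11 that rose, together with RPS27L, are all 12 named genes called higher on these arrays.

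Those that rose most were CDKN1A, the p21 inhibitor of cyclin-dependent kinases (log2 fold 2.42), the death receptor gene FAS (1.98), PPM1D, a phosphatase that switches the damage signal off (1.56), and GADD45A, a growth arrest gene (1.24). The stress-response gene SESN1, the damage recognition genes DDB2 and XPC, the ankyrin repeat gene ANKRA2 and CCNG1, which encodes cyclin G1, rose by log2 folds between 0.77 and 1.11, and TNFRSF10B and TP53I3, described with the values nearest to RPS27L, by 0.69 and 0.62. Of the genes that did not pass, BAX, which permeabilises mitochondria in apoptosis, had a log2 fold of 1.15, TIGAR, a brake on glycolysis, 0.90, SFN 0.41 and PCNA, the sliding clamp of replication, 0.39. Of the 30 targets 15 had a higher log2 fold than RPS27L and 15 a lower one.

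Next above RPS27L in that order was TP53I3, an oxidoreductase gene, with 1459 ± 79.3 in cisplatin cells and 943 ± 49.8 in control cells (SD, n = 3 each; log2 fold 0.62, SE 0.08, limma adjusted p = 0.0181). Next below it was PLK2, a polo-like kinase gene, with 363 ± 55.1 in cisplatin cells and 250 ± 33.1 in control cells (log2 fold 0.51, SE 0.15, limma adjusted p = 0.535). Neither differed from RPS27L in log2 fold by more than its own SE. The count of 11 was 4 without cisplatin 1, 7 without cisplatin 2, 4 without cisplatin 3, 4 without control 2 and 5 without control 3. It was 3 with the replicate block.

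**Figure D4:**
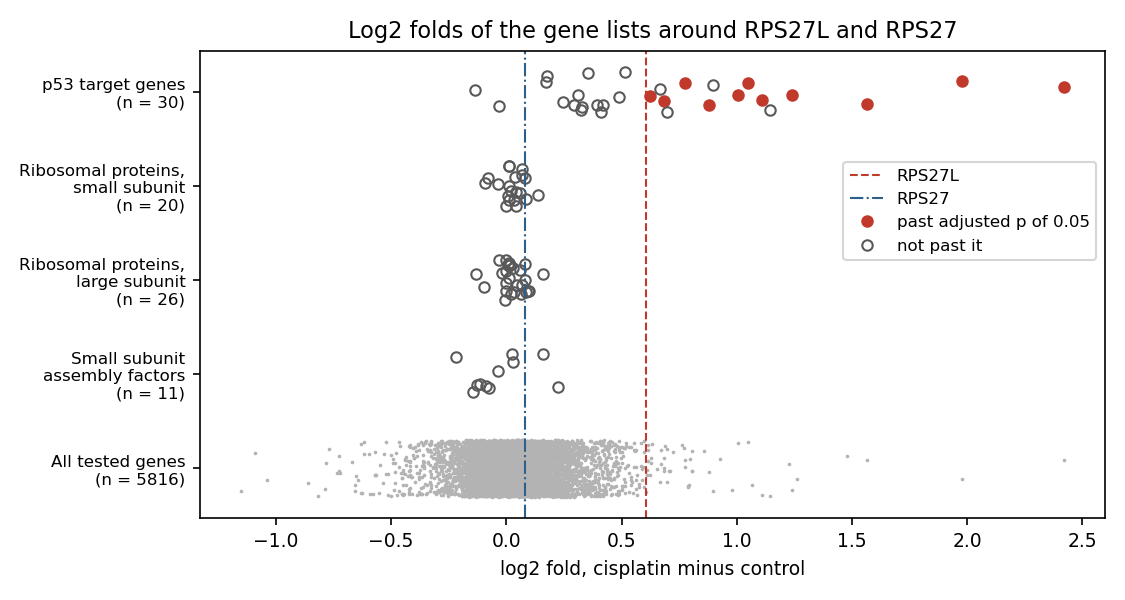
Log2 fold (cisplatin minus control) of each tested gene in 4 lists and of all 5816 tested genes, with dashed lines at RPS27L (0.61) and RPS27 (0.08). The 11 filled points are the p53 targets past an adjusted p of 0.05, RPS27L lies in the middle of that list, and the ribosomal protein genes lie between -0.13 and 0.16.

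Of 12 genes in the list of p53 regulators 9 had a probe set with a single symbol and 5 were tested. Among the 5, PPM1D was the 1 gene called, as higher, with 461 ± 60.8 in cisplatin cells and 147 ± 13.2 in control cells (SD, n = 3 each). Over all 5816 tested genes 0.292% were called. PPM1D is already counted among the 11 called p53 targets, so this list adds no separate call, and a count in 5 genes says little. CHEK2 and TP53BP1, which act between DNA breaks and p53, had log2 folds of 0.14 (SE 0.15) and 0.13 (SE 0.13). USP7, a deubiquitinase of MDM2 and p53, had one of -0.09 (SE 0.18). ATM was dim, at 18.4 to 66.8 over the 6 arrays, and its log2 fold of -0.04 (SE 0.37) is too imprecise to read. The probe sets of MDM2 and MDM4, an MDM2 relative, were below the filter.

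Likeness of profile was measured as the root mean square difference, over the 6 arrays, between log2 values that were centred on the mean of each gene. Among 5815 other genes the most like RPS27L was EMP1, an epithelial membrane protein gene, at 0.04. EMP1 had 134, 113 and 125 on cisplatin 1 to 3, against 75.6, 75.8 and 78.8 on control 1 to 3, and was not called (log2 fold 0.62, limma adjusted p = 0.187). Its arrays stood in the same order as those of RPS27L in both groups.

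The death receptor gene TNFRSF10B came next, at 0.08, with 741, 684 and 704 on cisplatin 1 to 3, against 418, 460 and 432 on control 1 to 3. RNF17, a dim probe set of a germ-cell gene (0.09), TP53I3 (0.09), MICB, a ligand of natural killer cell receptors (0.09), and DUSP14, a phosphatase of MAP kinases (0.10), followed. Of the 50 genes most like RPS27L, 6 were in the p53 list, to which 0.516% of the genes compared belong, and 0 in the ribosomal protein list.

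The genes most like RPS27 were ATP5PO (0.01), GALNS (0.02), ATP5MJ (0.02), VDAC3 (0.02), ELOVL5 (0.03) and AKAP8 (0.03). ATP5PO and ATP5MJ encode parts of the mitochondrial ATP synthase and VDAC3 a channel of the outer mitochondrial membrane. GALNS encodes a lysosomal sulfatase, ELOVL5 a fatty acid elongase and AKAP8 an anchor of protein kinase A. ATP5PO had 984, 879 and 964 on cisplatin 1 to 3, against 890, 883 and 922 on control 1 to 3, and its groups overlapped, with cisplatin 2 below all 3 control arrays. Of the 50 genes most like RPS27, 9 were in the ribosomal protein list, to which 0.791% of the genes compared belong, and 0 in the p53 list. The members differed from each other by 0.27. In likeness to RPS27L, RPS27 was number 844, and the median difference of all genes from RPS27L was 0.34. In likeness to RPS27, RPS27L was number 4376, and the median difference from RPS27 was 0.19. All 6 arrays enter these differences, the contrast between the groups included, so the ranks describe the profiles and test nothing.

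RPS27L lies on chromosome 15 and RPS27 on chromosome 1. Of the nearest 2 measured protein-coding genes on each side of either, 7 of 8 were tested in limma, with 0 called and 0 at an unadjusted p under 0.05. Over all 5816 tested genes 0.292% were called and 303 reached that p, so 0 of 7 says little. Some of these genes lie far off, and the gene directly before RPS27L was not measured. RAB8B, a trafficking GTPase gene next to RPS27L, had 43.3 ± 12.6 in cisplatin cells and 36.0 ± 6.82 in control cells (SD, n = 3 each; log2 fold 0.19, SE 0.21). TPM1, a tropomyosin gene 76.3 kb away on its other side, had a log2 fold of -0.09. CA12, a carbonic anhydrase gene 164 kb from RPS27L, had one of -0.11. RORA, 1920 kb from RPS27L, was too dim to be tested. RAB13, the direct neighbour of RPS27, had 1159 ± 37.6 in cisplatin cells and 1067 ± 124 in control cells, a log2 fold of 0.12 (SE 0.10). JTB, the apoptosis regulator HAX1 and the interleukin receptor gene IL6R had log2 folds of 0.07, 0.12 and 0.21. These 3 genes lie 13.1, 280 and 413 kb from RPS27.

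Both probe set names end in s_at, by which the manufacturer marks sets whose probes match more than one transcript. RefSeq lists 30 pseudogenes named after RPS27 and 0 named after RPS27L, and it gives RPS27 3 transcripts and RPS27L 1. Probe sequences were not analysed here, so whether either set also detects the other member or a pseudogene was not tested.

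The epithelial markers of the list were uneven. KRT18, KRT8 and KRT7 averaged 5595, 1957 and 1950 in cisplatin cells and 5810, 2145 and 2243 in control cells, and KRT19 averaged 143 in cisplatin cells and 131 in control cells, whereas the means of EPCAM and CDH1 lay between 32.7 and 37.3, not far above the filter. Of these 6 markers 1 had a log2 fold above 0 and 5 below, where 3522 of all 5816 tested genes were above 0. In limma 0 of the 6 were called and 0 reached an unadjusted p under 0.05. Since 0.292% of all 5816 tested genes were called and 303 reached that p, counts of 0 in so short a list say little. Of 10 markers of blood, endothelial and stromal cells 5 were tested, with 0 called. COL1A1 averaged 95.5 in cisplatin cells and 102 in control cells, and PECAM1 69.6 in cisplatin cells and 61.2 in control cells. The means of CD14, CD3E and HBB lay between 37.8 and 46.9. All 5 thus had means above those of EPCAM and CDH1, whereas PTPRC, VWF and COL3A1 were below the filter. The filter stood at an intensity of 23.8, and HBB ran from 9.53 to 55.8 over the cisplatin arrays. Whether blood, endothelial or stromal cells were present in these A549 cultures was not tested. The median intensity per array was between 57.2 and 67.2. With 3 arrays a group, precision is set by their number.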

How the data were processed

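The authors deposited one table of probe set intensities on a linear scale, from -512.3 to 9153, with 1.37% of values at or below 0. How they were summarised and scaled is not given in the sources used here. Negative values were set to 0, an offset of 11.8 (the 10th percentile of positive values) was added and log2 taken. Arrays were used as deposited, since their 75th percentiles spanned 0.16 on the log2 scale. After removal of 47 control probe sets, 6559 of 8746 at or above the 25th percentile of mean log2 were tested with limma 3.58.1 under R 4.3.3 (lmFit, eBayes with intensity trend, two-sided, Benjamini-Hochberg at 0.05). The fit was also run on simulated independent noise with known changes, which cannot show how it handles shifts shared by a whole array. Gene names came from the platform's table (7840 probe sets with 1 symbol, 388 with several, 518 unnamed here), checked against RefSeq for GRCh38.p14 by Entrez identifier (7838 matched, 0 changed). Each gene was represented by its brightest tested probe set. Genes without a single-symbol probe set were not analysed here.

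Members, lists and alternatives were chosen with earlier results of these data known. Genes were named by rule: both members; up to 10 called p53 targets with the largest change and the 4 below the threshold with the lowest p; the 2 highest and 2 lowest ribosomal protein genes; all measured paralogs and MDM2 binders; up to 3 called genes, or the 2 of lowest p, in the p53 regulator and assembly lists; the nearest measured neighbours; and the 6 genes most alike. TP53I3 entered through the last. PLK2, the other tested p53 regulators, S100A6 and the markers were named outside the rule, after their values were seen. With 3 arrays a group the smallest exact p is 0.1, so no such test was run. The p-values measure the spread between arrays of one cell line. Arrays of equal replicate number were not treated as pairs, since no label ties them to one experiment. Figures used matplotlib 3.10.9 under Python 3.11.15.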

Additional observations from a re-analysis of the deposited data

How the results depend on the processing

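Over 18 alternatives the log2 fold of RPS27L ran from 0.53 to 0.65 and the within-array difference from 0.48 to 0.56, moving by less than 1 SD between arrays in each. RPS27 ran from 0.01 to 0.12 and moved by more than that once, to 0.0071 after centring each array on its median; without each array in turn it ran from 0.05 to 0.12. RPS27L was called in 12 of the 18, and 0 ribosomal protein genes were called in any. The 11 called p53 targets became 6 after that centring, 5 without an intensity trend and 4 to 11 without each array in turn. The 19 called probe sets became 11, 8 and 6 to 18 under the same settings, and 47 with the 3′/5′ covariate and 44 with array weights; the cause was not tested. With the replicate block 3 p53 targets and 5 probe sets were called. No label ties equal numbers to one experiment. Deviations of equally numbered arrays correlated at -0.56, -0.31 and -0.12, but with 3 arrays a group this cannot decide whether they were paired. A call lost with the block says little of effect size. The members lay far above the filter, but dim signal left 5 of 35 measured p53 targets untested.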
